A study of Homo sapiens with 12 samples.

Results

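Transcripts of 10 genes of the MYC and MAX network were followed by RNA-seq in 2 lines of human colon cancer cells. The members, MYC, MYCN, MYCL, MAX, MXD1, MXD3, MXD4, MXI1, MNT and MLX, were chosen by name from the 60617 genes of the deposited tables as a known gene network, with earlier results of these data known, and no measured value entered the rule. HCT 116p53-/- cells derive from the HCT116 colon cancer line and lack p53. uL3ΔHCT 116p53-/- cells are a sub-line labelled as carrying, in addition, a knockout of RPL3, the gene of the ribosomal protein uL3, and the study's text calls them stably silenced for uL3. Both lines received vehicle or 5 nM Act D (actinomycin D, an inhibitor of rRNA transcription at low dose) for 24 h, so that all 4 groups lack p53, and each group has 3 libraries labelled as biological replicates. The sources used here do not say whether the sub-line is a single clone.

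MYC, MYCN and MYCL are transcription factors that bind DNA only as dimers with MAX, their common partner, at a short sequence called the E-box (CACGTG), and activate genes of ribosome assembly, metabolism and cell cycle entry. MXD1, MXD3, MXD4, MXI1 and MNT compete for MAX and for the same sites and bring the SIN3 corepressor with its histone deacetylases. MLX is a MAX-like protein that pairs with some of these repressors and with the nutrient sensors MondoA (MLXIP) and ChREBP (MLXIPL). In colon cancer, MYC is known as a gene switched on by Wnt signalling.

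Library totals were between 10087925 and 21138886 expected counts, the fractional read counts that RSEM assigns to a gene. Levels are given as CPM, a count scaled to the library total after TMM normalization, when a gene is compared between libraries. They are given as TPM, which is scaled to the library and also divided by transcript length, when different genes are compared within a library. RPL3 itself had a level of 1138 ± 15.3 CPM in HCT 116p53-/- cells and at 1242 ± 82.5 CPM (SD, n = 3 each) in uL3Δ-labelled libraries with vehicle, a log2 difference of 0.13 (adjusted p = 0.155). Its direction depended on the scale: library size alone gave -0.11 (adjusted p = 0.299), and in TPM it was at 720 to 826 in HCT 116p53-/- cells against 545 to 641, which did not overlap and was not tested. RPL3 passed the test in no alternative run, and the lines are named by their labels. Of 11 colon epithelium markers, 6 reached 1 CPM in HCT 116p53-/- cells with vehicle and 4 in the uL3Δ-labelled libraries, where their summed level was 1591 to 1784 CPM against 2481 to 2682 CPM, and 6 of the 7 tested were lower and 1 was higher. Of these markers, the adhesion protein CDH1 was at 66.8 CPM against 0.445 CPM, the intestinal factor CDX2 at 14.8 CPM against 0.177 CPM and KRT19 at 609 CPM against 36.6 CPM, while CDX1 was at 0 in HCT 116p53-/- cells. The 1 that was higher was KRT18, by a log2 difference between 0.24 and 0.51 over 14 alternative analyses. Of 6 fibroblast markers, 1 reached 1 CPM in HCT 116p53-/- cells and 4 in the uL3Δ-labelled libraries, with summed levels of 7.58 to 9.66 CPM against 68.4 to 84.7 CPM. Of the 4 tested, 3 were higher, led by COL3A1 (0.306 against 57.8 CPM) and LUM (0 against 10.5 CPM), and COL1A1 was lower (7.50 against 4.14 CPM, adjusted p = 0.0018), while DCN and COL1A2 stayed under 1 CPM on average in both lines. Of 5 haematopoietic markers, 0 reached 1 CPM in HCT 116p53-/- cells and 1 in the uL3Δ-labelled libraries, with summed levels of 0.725 to 1.36 CPM against 5.06 to 7.11 CPM. The part of this difference in identity in the results that follow was not tested.

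Of the 10 members, 9 had enough counts to be tested. MYCN had 1 count in the 12 libraries together, where 3 counts in a library correspond to 0.150 to 0.348 CPM, and it was not tested. Between the lines with vehicle, 8 of the 9 members differed, 4 higher and 4 lower in the uL3Δ-labelled libraries, with a limit of 0.05 on p from the quasi-likelihood test of edgeR, adjusted after Benjamini and Hochberg over the 15692 genes tested. Of all genes tested, 71.3% passed the same test, so that a share this high was the rule between these lines. The 3 libraries of one line did not overlap with the 3 of the other for 8 of the 9 members and for 72.5% of all genes. The median absolute log2 difference was 0.78 over the 9 members and 0.74 over all genes. With Act D, 7 members passed, 3 higher and 4 lower, against 70.4% of all genes, and 8 members did not overlap, against 74.1% of all genes. Every adjusted p below is from this test. The p-values measure the spread between these libraries, and the sources do not say more of how the replicate cultures were kept apart.

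**Figure D1:**
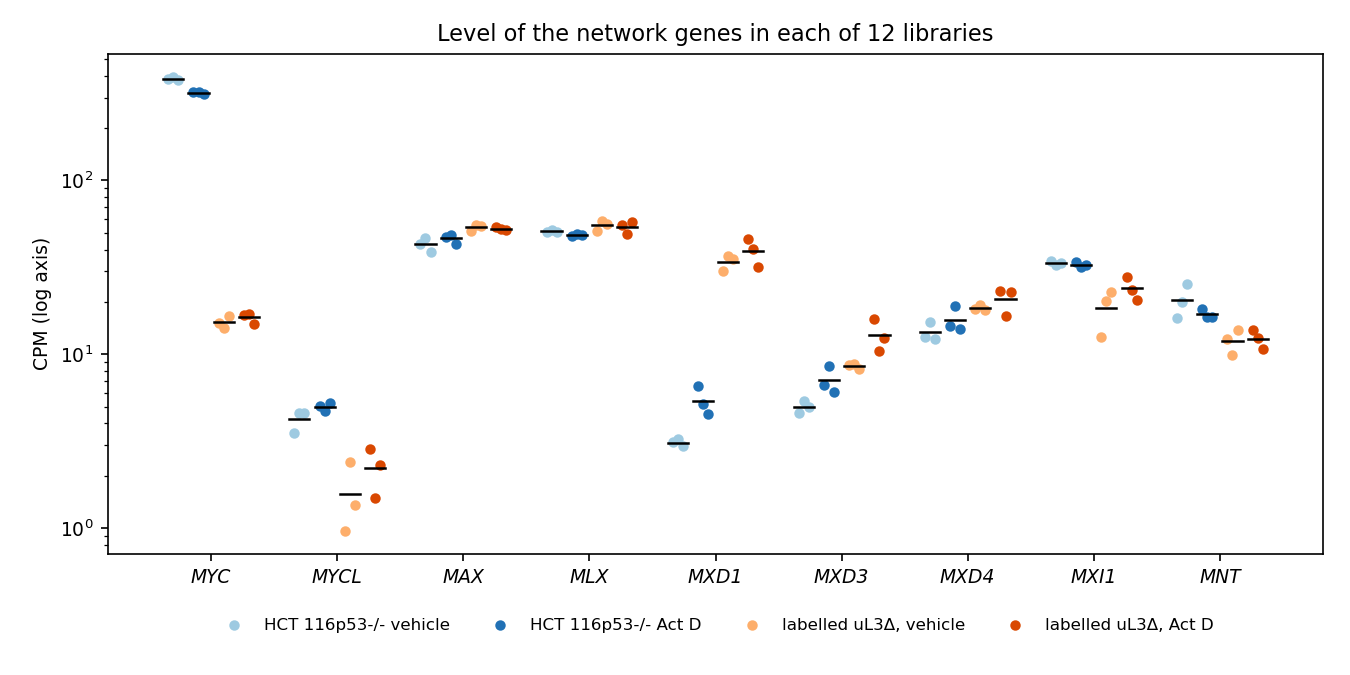
CPM (log axis) of the 9 tested network genes in each of the 12 libraries, with a point per library and a bar at the mean of each group of 3. MYC falls from 376 to 395 CPM in HCT 116p53-/- cells with vehicle to 14.1 to 16.6 CPM in the uL3Δ-labelled libraries, while MXD1 stands at 2.96 to 3.24 CPM and 30.2 to 36.8 CPM.

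MYC (ENSG00000136997, chromosome 8, 127735434 to 127742951, plus strand, hg38) was by TPM the most abundant member in HCT 116p53-/- cells and held a middle rank in the uL3Δ-labelled libraries. With vehicle its level was 384, 395 and 376 CPM in the 3 libraries of HCT 116p53-/- cells. With Act D these cells had 322, 324 and 314 CPM. The libraries labelled uL3Δ had 15.2, 14.1 and 16.6 CPM with vehicle and 16.8, 17.1 and 15.0 CPM with Act D. Every library of HCT 116p53-/- cells thus lay far above every library labelled uL3Δ, and within HCT 116p53-/- cells the Act D libraries lay below the vehicle libraries. On the log2 scale the uL3Δ-labelled libraries differed by -4.66 (standard error 0.09, adjusted p = 5.56e-17), a level 25.2-fold lower, with vehicle and -4.29 (standard error 0.09, adjusted p = 2.05e-16), 19.6-fold lower, with Act D. Over the alternative analyses it stayed between -4.90 and -4.59 with vehicle.

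The level of MYC in the uL3Δ-labelled libraries was 3.97% of that in HCT 116p53-/- cells with vehicle and 5.09% with Act D. As a comparison, 3 epithelial genes typical of HCT 116p53-/- cells (KDF1, BSPRY and KRT13) were at 0% of their level there with vehicle and at 0.273 to 0.899% with Act D. These 3 genes were picked for their low level in the uL3Δ-labelled libraries, and a part of carried-over RNA in the level of MYC was not tested. In the transcript estimates, which are at hand for a single library, replicate 2 of HCT 116p53-/- cells with vehicle, the transcripts ENST00000377970 and ENST00000524013 held 37.1% and 28.5% of the TPM of MYC.

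MYCL (chromosome 1, 39895428 to 39902256, minus strand), the family member first found in small cell lung cancer, was low in both lines. In HCT 116p53-/- cells it was at 3.50, 4.61 and 4.59 CPM with vehicle and at 5.05, 4.73 and 5.23 CPM with Act D. In the uL3Δ-labelled libraries it was at 0.964, 2.40 and 1.35 CPM with vehicle and at 2.84, 1.49 and 2.32 CPM with Act D. The lines did not overlap under either treatment, and MYCL was lower in the uL3Δ-labelled libraries by a log2 difference of -1.37 (standard error 0.29, adjusted p = 0.000421) with vehicle and -1.14 (standard error 0.30, adjusted p = 0.00227) with Act D. Neither of the tested members of the MYC family, MYC and MYCL, was thus higher in the uL3Δ-labelled libraries.

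MAX (chromosome 14, 65006174 to 65102695, minus strand), the shared partner, differed little. It was at 43.0, 46.8 and 38.9 CPM in HCT 116p53-/- cells with vehicle and at 51.0, 55.3 and 54.8 CPM in the uL3Δ-labelled libraries, which did not overlap. The log2 difference was 0.33 (standard error 0.09, adjusted p = 0.00279) with vehicle, and 0.19 with Act D (standard error 0.09, adjusted p = 0.0693). Scaling by library size alone gave 0.09 (adjusted p = 0.446) with vehicle and -0.06 with Act D, so that its direction with Act D flipped with the scaling. MLX (chromosome 17, 42567072 to 42573239, plus strand) was at 51.1 ± 0.665 and 55.4 ± 3.56 CPM (SD, n = 3) with vehicle, a log2 difference of 0.12 (95% interval -0.05 to 0.28, adjusted p = 0.214), and at 48.6 ± 0.409 and 54.3 ± 4.47 CPM with Act D (0.16, 95% interval -0.01 to 0.33, adjusted p = 0.101). MLX was the single tested member that passed in neither comparison of the lines, and its direction flipped to -0.12 with vehicle under scaling by library size.

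Among the repressors, MXD1, MXD3 and MXD4 were higher in the uL3Δ-labelled libraries, whereas MXI1 and MNT were lower. MXD1 (chromosome 2, 69897688 to 69942945, plus strand), known for its rise when cells leave the cycle and differentiate, was at 3.11, 3.24 and 2.96 CPM in HCT 116p53-/- cells with vehicle. In the uL3Δ-labelled libraries it was at 30.2, 36.8 and 35.1 CPM. With Act D it was at 6.60, 5.14 and 4.50 CPM against 46.0, 40.3 and 31.9 CPM. The libraries labelled uL3Δ lay above all libraries of HCT 116p53-/- cells, by 3.46 (standard error 0.17, adjusted p = 3.42e-12) on the log2 scale with vehicle and by 2.86 (standard error 0.16, adjusted p = 2.51e-11) with Act D.

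MXD3 (chromosome 5, 177301461 to 177312757, minus strand), a family member expressed in dividing cells, was at 4.60, 5.37 and 4.95 CPM in HCT 116p53-/- cells with vehicle and at 8.68, 8.76 and 8.17 CPM in the uL3Δ-labelled libraries, a log2 difference of 0.78 (standard error 0.18, adjusted p = 0.000688). With Act D it was at 6.67, 8.52 and 6.03 CPM against 15.9, 10.4 and 12.4 CPM, a difference of 0.88 (standard error 0.17, adjusted p = 0.000175). Neither treatment gave an overlap between the lines.

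MXD4 (chromosome 4, 2247432 to 2262109, minus strand) was at 12.6, 15.4 and 12.2 CPM against 18.2, 19.1 and 17.9 CPM with vehicle, a log2 difference of 0.46 (standard error 0.15, adjusted p = 0.00895). With Act D the libraries overlapped, at 14.5, 19.1 and 13.9 CPM against 23.0, 16.7 and 22.8 CPM, and the difference was 0.40 (adjusted p = 0.0225). It missed the threshold without replicate 1 or 3 of either group with Act D (0.28 to 0.33, adjusted p = 0.0951 to 0.136), and scaling by library size alone gave 0.23 (adjusted p = 0.221) with vehicle and 0.16 (adjusted p = 0.391) with Act D.

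MXI1 (also known as MXD2, chromosome 10, 110207605 to 110287365, plus strand) was at 34.5, 32.6 and 33.5 CPM in HCT 116p53-/- cells with vehicle and at 12.5, 20.1 and 22.8 CPM in the uL3Δ-labelled libraries, where its spread was wide. The log2 difference was -0.85 (standard error 0.16, adjusted p = 9.24e-05). With Act D it was at 33.8, 31.9 and 32.4 CPM against 27.9, 23.5 and 20.6 CPM, a difference of -0.43 (standard error 0.16, adjusted p = 0.0201). MNT (chromosome 17, 2384073 to 2401104, minus strand), the repressor that most cells express regardless of growth, was at 16.1, 20.1 and 25.3 CPM against 12.3, 9.86 and 13.8 CPM with vehicle (log2 difference -0.78, standard error 0.16, adjusted p = 0.000282). With Act D it was at 18.3, 16.4 and 16.4 CPM against 13.8, 12.4 and 10.7 CPM (-0.46, standard error 0.17, adjusted p = 0.0214). Both calls with Act D were lost without replicate 1 of HCT 116p53-/- cells (MXI1 -0.42, adjusted p = 0.0534, and MNT -0.41, adjusted p = 0.0705) or without replicate 3 labelled uL3Δ (-0.38, adjusted p = 0.059, and -0.41, adjusted p = 0.0598).

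**Figure D2:**
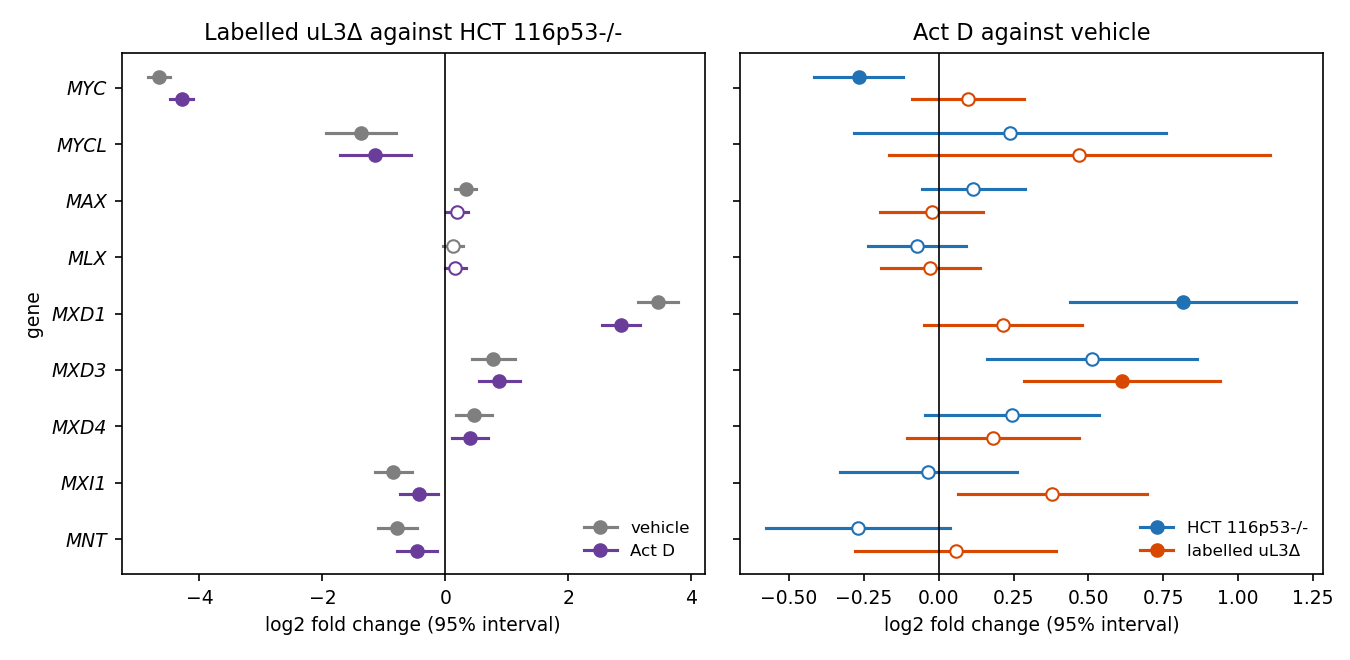
Fitted log2 fold change (point) and its 95% interval (line) of the 9 tested members, between the lines on the left and for Act D against vehicle on the right, where the horizontal axis is stretched. Filled points passed an adjusted p under 0.05: MYC at -4.66 and MXD1 at 3.46 stand apart on the left, and on the right 3 points are filled (MYC and MXD1 in HCT 116p53-/- cells, MXD3 in the uL3Δ-labelled libraries).

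The MAX dimers read the E-box, and the members' own promoters were therefore searched for it. RefSeq promoter windows (GRCh38.p14, 250 bases before to 50 after a gene's start) were searched for 9 of the 10 members, with 12 windows. CACGTG, which reads the same on both strands, was found in 3 of them, 1 each of MXD4, MNT and MLX. MYC was left out of the search by choice, so these counts do not cover its promoter. Of all 35116 windows of this length, 7.26% held it. The 3 windows with an E-box are printed beside that of MXD1, the member with the largest rise between the lines, which held none, 5′ to 3′ on each gene's own strand with the E-box in capitals.
MXD4 (chr4:2262060-2262359, minus strand): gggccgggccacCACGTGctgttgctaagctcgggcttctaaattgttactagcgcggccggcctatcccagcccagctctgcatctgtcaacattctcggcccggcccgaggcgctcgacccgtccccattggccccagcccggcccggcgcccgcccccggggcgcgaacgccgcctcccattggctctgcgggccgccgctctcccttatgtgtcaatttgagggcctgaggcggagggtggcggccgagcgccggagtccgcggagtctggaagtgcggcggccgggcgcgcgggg
MNT (chr17:2401011-2401310, minus strand): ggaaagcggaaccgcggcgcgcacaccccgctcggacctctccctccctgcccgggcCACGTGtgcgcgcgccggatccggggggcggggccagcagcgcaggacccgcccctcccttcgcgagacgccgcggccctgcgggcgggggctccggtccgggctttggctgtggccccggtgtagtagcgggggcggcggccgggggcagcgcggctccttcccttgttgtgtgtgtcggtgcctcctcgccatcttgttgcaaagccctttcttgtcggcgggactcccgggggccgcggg
MLX (chr17:42566850-42567149, plus strand): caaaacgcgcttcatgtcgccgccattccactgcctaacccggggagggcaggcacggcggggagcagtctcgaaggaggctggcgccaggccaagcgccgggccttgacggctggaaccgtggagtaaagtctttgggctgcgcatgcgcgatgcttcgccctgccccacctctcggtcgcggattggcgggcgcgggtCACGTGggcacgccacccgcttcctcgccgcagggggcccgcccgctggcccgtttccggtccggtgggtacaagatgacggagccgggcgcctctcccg
MXD1 (chr2:69914859-69915158, plus strand): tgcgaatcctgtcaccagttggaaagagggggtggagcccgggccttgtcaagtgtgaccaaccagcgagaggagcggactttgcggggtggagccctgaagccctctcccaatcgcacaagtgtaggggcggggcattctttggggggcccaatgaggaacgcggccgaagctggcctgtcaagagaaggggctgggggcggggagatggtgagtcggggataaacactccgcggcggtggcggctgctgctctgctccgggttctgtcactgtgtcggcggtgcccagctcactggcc

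The E-box of MLX lay nearest to the start, from base -50 to -45, and those of MNT and MXD4 lay at -193 to -188 and at -238 to -233. Across these 3 genes the lines differed in both directions, with MXD4 higher, MNT lower and MLX not called. The related sequence CACGCG, or its reverse complement CGCGTG, occurred in the windows of MXD3 and of MXI1 (1 of its 3), in each at bases 9 to 14 after the start, and in 11.4% of all windows. A match describes the letters of a window and not a bound site.

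Compared per length within a library, the lines differed mainly in the ranks of MYC, MNT and MXD1, while MAX, MLX and MXI1 kept their order. In HCT 116p53-/- cells with vehicle, MYC stood at 161, 152 and 147 TPM, followed by MAX (23.2 ± 4.59 TPM, SD, n = 3) and MLX (18.5 ± 0.599 TPM), which overlapped, then MXI1 (13.6 ± 0.725 TPM). MNT (4.57 ± 1.38 TPM), MXD3 (3.42 ± 0.354 TPM) and MXD4 (3.13 ± 0.344 TPM) came next and overlapped with their neighbours, and MYCL (1.10 ± 0.006 TPM) and MXD1 (0.430 ± 0.026 TPM) were last of those detected. In the uL3Δ-labelled libraries with vehicle, MAX (22.1 ± 5.08 TPM) and MLX (14.1 ± 1.58 TPM) led without overlap. MXI1 (4.61 ± 1.14 TPM), MYC (4.38 ± 0.798 TPM), MXD3 (4.20 ± 0.340 TPM), MXD1 (3.76 ± 0.470 TPM) and MXD4 (3.46 ± 0.238 TPM) followed, each overlapping with the next, and MNT (1.78 ± 0.520 TPM) and MYCL (0.300 ± 0.118 TPM) closed the order. MAX, which was higher in CPM in these libraries, overlapped between the lines in TPM, and MLX was lower in TPM (17.8 to 18.9 against 12.3 to 15.4 with vehicle), opposite in direction to its CPM.

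Of the summed TPM of the MYC family and of MXD1, MXD3, MXD4, MXI1 and MNT, the MYC family held 86.6%, 86.3% and 84.9% in HCT 116p53-/- cells with vehicle and 82.8%, 83.4% and 81.5% with Act D. In the uL3Δ-labelled libraries it held 22.5%, 19.9% and 20.0% with vehicle and 17.6%, 21.6% and 17.6% with Act D. The lines lay far apart, and within HCT 116p53-/- cells all libraries with Act D lay below all with vehicle. The ratio of MAX to MYC in TPM ranged from 0.123 to 0.194 in HCT 116p53-/- cells and from 3.39 to 5.88 in the uL3Δ-labelled libraries. Transcript levels say nothing of the proteins' levels, which decide how much MAX each partner can bind.

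**Figure D3:**
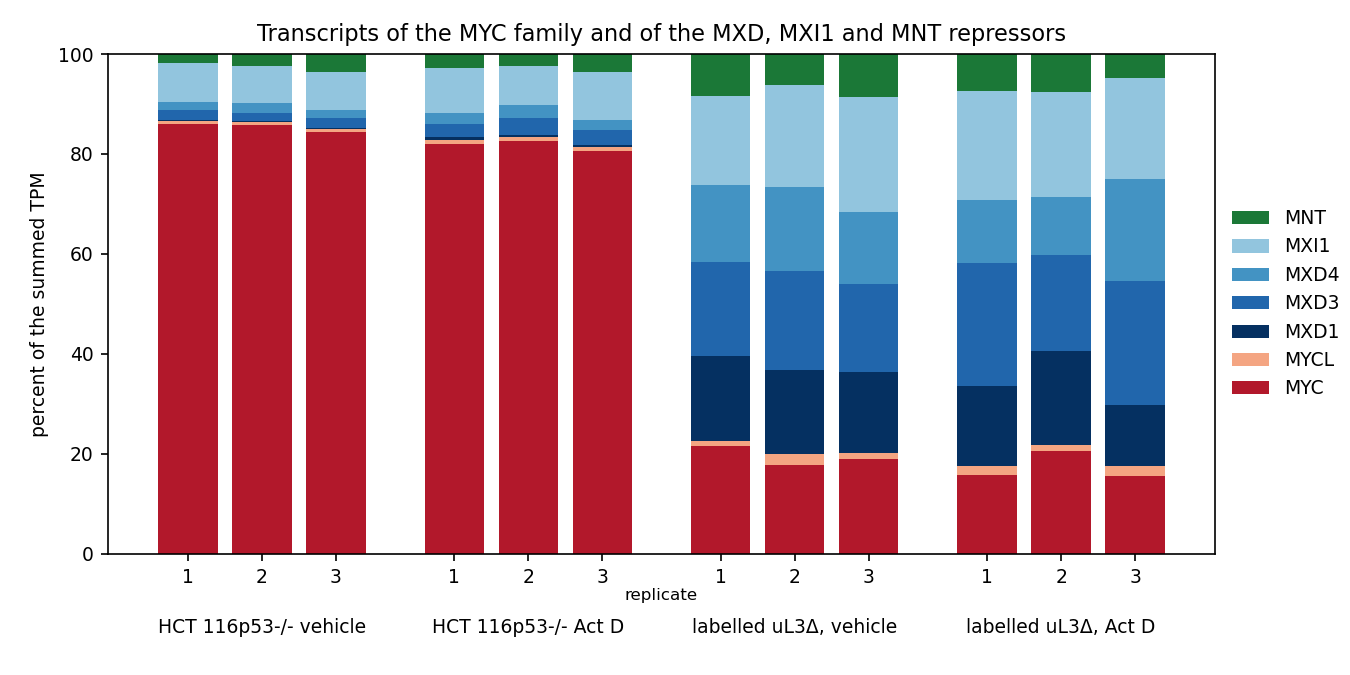
Percent of the summed TPM of MYC, MYCL, MXD1, MXD3, MXD4, MXI1 and MNT that each gene held in each of the 12 libraries (bars, replicates 1 to 3 of each group). The MYC family fills 81.5 to 86.6% of the bars of HCT 116p53-/- cells and 17.6 to 22.5% of those labelled uL3Δ.

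The repressors also changed in their proportions. Of the summed TPM of MXD1, MXD3, MXD4, MXI1 and MNT, MXI1 held 50.6 to 57.7% in HCT 116p53-/- cells with vehicle and 23.0 to 28.6% in the uL3Δ-labelled libraries, in which MXD3 held 22.1 to 24.9%, MXD1 20.5 to 22.0% and MXD4 18.0 to 20.9%. MXD1 had held 1.56 to 1.83% in HCT 116p53-/- cells. The highest share of any repressor in a uL3Δ-labelled library was 29.96%, for MXD3 with Act D.

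With Act D, the share of members that passed was near that of all genes tested. In HCT 116p53-/- cells 2 of the 9 passed, MXD1 upward and MYC downward, against 18.7% of all genes tested, and 5 members did not overlap between treatments, against 38.2% of all genes. In the uL3Δ-labelled libraries 1 member passed, MXD3 upward, against 11.9% of all genes, and the same 1 did not overlap, against 27.6%. The median absolute log2 change over the 9 members was 0.25 in HCT 116p53-/- cells and 0.18 in the uL3Δ-labelled libraries, and over all genes it was 0.23 and 0.21. Of all genes, 1191 rose and 1748 fell in HCT 116p53-/- cells and 551 rose and 1318 fell in the uL3Δ-labelled libraries, which scaling by library size alone turned to 551 and 2309 and to 227 and 1858, a shift of -0.10 in the median log2 change, and scaling by the upper quartile to 1480 and 1519 and to 944 and 1012. These comparisons share their vehicle and Act D libraries with the comparisons of the lines.

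MYC fell by 0.27 on the log2 scale (standard error 0.08, adjusted p = 0.0192) in HCT 116p53-/- cells, from 385 ± 9.68 to 320 ± 5.23 CPM (SD, n = 3). The direction held without each library in turn, but the adjusted p rose to between 0.0563 and 0.0917 without replicate 2 with vehicle or any of the 3 with Act D, and to 0.0535 with no filter on low counts. In the uL3Δ-labelled libraries the change was 0.10 (95% interval -0.09 to 0.29, adjusted p = 0.573). The difference between the responses was 0.37 (standard error 0.12) with an adjusted p of 0.0839.

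MXD1 rose in HCT 116p53-/- cells by 0.82 on the log2 scale (standard error 0.19, adjusted p = 0.00638), from 3.10 ± 0.139 to 5.42 ± 1.08 CPM (SD, n = 3). Without replicate 1 with Act D, the highest library, the change was 0.64 with an adjusted p of 0.055. Beside this rise, 6 genes that are almost confined to the uL3Δ-labelled libraries (among them FABP4, TGFBI and FOXA2) stood at 0 to 0.413% of their level there in HCT 116p53-/- cells with vehicle and at 0.548 to 1.07% with Act D. These 6 genes were picked for their low level in HCT 116p53-/- cells, and a part of RNA carried over between libraries in the rise of MXD1 was not tested. In the uL3Δ-labelled libraries the change of MXD1 was 0.22 (95% interval -0.05 to 0.48, adjusted p = 0.344), and the difference between the responses was -0.60 (standard error 0.24, adjusted p = 0.143).

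MXD3 rose in the uL3Δ-labelled libraries by 0.61 (standard error 0.17, adjusted p = 0.0229), from 8.53 ± 0.318 to 12.9 ± 2.80 CPM (SD, n = 3). Its call was lost without replicate 2 or 3 with vehicle (0.63 and 0.58, adjusted p = 0.0513 and 0.0682), without replicate 1 or 3 with Act D (0.41 and 0.61, adjusted p = 0.177 and 0.0512) and under scaling by library size alone (0.52, adjusted p = 0.0856). In HCT 116p53-/- cells its change was 0.51 (standard error 0.18, adjusted p = 0.0553), with the Act D libraries above the vehicle libraries. It passed there under 4 alternatives, the likelihood-ratio test (adjusted p = 0.0392), upper-quartile scaling (adjusted p = 0.04), a fit of only these 2 groups (adjusted p = 0.0455) and without replicate 3 with Act D (adjusted p = 0.0384). The difference between the responses of MXD3 was 0.10 (95% interval -0.38 to 0.58, adjusted p = 0.866). MAX (0.12 and -0.02), MLX (-0.07 and -0.03), MXD4 (0.25 and 0.18), MXI1 (-0.03 and 0.38), MNT (-0.27 and 0.06) and MYCL (0.24 and 0.47) passed in neither line, where the values are log2 changes with Act D in HCT 116p53-/- cells and in the uL3Δ-labelled libraries. Of these, MXI1 passed in the uL3Δ-labelled libraries once replicate 3 with vehicle was left out (0.54, adjusted p = 0.047).

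The 2 responses to Act D, set against each other, differed for 0 of the 9 members by the quasi-likelihood test of edgeR at the same limit, against 6.53% of all genes tested. At an unadjusted p under 0.05 there were 2, and the share of all genes at that limit is not given here. DESeq2 and edgeR's likelihood-ratio test also called 0 members, where they called 1271 and 1476 of the 15692 genes. Among 9 members, a count of 0 lies near these shares.

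Several members share ground with a neighbouring gene, and whether the counting used strand is not given in the sources used here. MAX overlaps the opposite-strand gene FNTB, MXD1 the same-strand SNRNP27, MXD3 the same-strand RAB24 and the opposite-strand PRELID1, and MLX the opposite-strand PSMC3IP. Reads from these pairs cannot be fully told apart where they overlap. RSEM's own posterior standard deviation was at most 3.02% of the count, for MXD3, and under 1% for the other members with counts.

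MGA and the Mondo factors, which use MAX or MLX as partners and were listed beside the members, were lower in the uL3Δ-labelled libraries under both treatments. MGA, a very large repressor that pairs with MAX in a Polycomb complex, was at 116, 117 and 110 CPM in HCT 116p53-/- cells with vehicle and at 79.5, 78.4 and 82.2 CPM in the uL3Δ-labelled libraries (log2 difference -0.52, standard error 0.08, adjusted p = 1.26e-05). MGA fell with Act D in both lines, to 77.8 ± 2.35 CPM (SD, n = 3) by a log2 change of -0.56 (adjusted p = 8.08e-05) and to 54.9 ± 4.67 CPM by -0.55 (adjusted p = 0.000244). MLXIP was at 61.8 ± 12.1 and 35.5 ± 7.50 CPM with vehicle (-0.81, adjusted p = 6.17e-05), and MLXIPL at 6.05 ± 1.88 and 1.00 ± 0.355 CPM (-2.54, adjusted p = 2.24e-06). Neither MLXIP nor MLXIPL passed with Act D in either line.

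Of the 3 listed targets of MondoA and MLX, KLF10 was higher in the uL3Δ-labelled libraries (128 ± 15.3 against 59.0 ± 2.96 CPM, log2 difference 1.12, adjusted p = 2.8e-09). ARRDC4, an arrestin that restrains glucose uptake, was lower (0.0761 against 2.70 CPM, adjusted p = 5.77e-08), and TXNIP, which does the same, was at 2.84 against 2.60 CPM (adjusted p = 0.913). None of the 3 passed with Act D in either line.

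Of the genes around MYC on chromosome 8, 5 of the 9 measured could be tested, and 4 were lower in the uL3Δ-labelled libraries. PVT1, the long noncoding RNA next to MYC, was at 60.6, 57.8 and 57.4 CPM in HCT 116p53-/- cells with vehicle and at 21.8, 19.0 and 21.2 CPM in the uL3Δ-labelled libraries (log2 difference -1.51, standard error 0.09, adjusted p = 5.56e-11). With Act D it was at 43.2, 40.3 and 41.7 CPM and at 12.4, 11.5 and 12.8 CPM. PVT1 thus fell with Act D in both lines, by 0.49 (adjusted p = 0.000603) and by 0.75 (adjusted p = 9.8e-05) on the log2 scale. CASC19, a noncoding RNA of the same gene desert, was at 25.3 ± 3.12 against 0.332 ± 0.084 CPM with vehicle (log2 difference -6.19, adjusted p = 2.29e-14), and LRATD2 at 28.6 ± 1.28 against 7.06 ± 0.088 CPM (-2.02, adjusted p = 7.66e-11). CASC8 was lower too (1.94 against 0.0435 CPM, adjusted p = 2.26e-07). PRNCR1, at 1.09 against 0.580 CPM, did not pass (adjusted p = 0.0903). CASC11, which overlaps MYC on the opposite strand, had 26 counts in all, in HCT 116p53-/- cells. Unlike PVT1, LRATD2 rose with Act D in HCT 116p53-/- cells, to 39.4 CPM (0.46, adjusted p = 0.00609). Its call was lost under scaling by library size alone and without replicate 2 with Act D. In the uL3Δ-labelled libraries LRATD2 did not pass (0.18, adjusted p = 0.461), and CASC19, CASC8 and PRNCR1 passed with Act D in neither line.

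The next lists hold proteins that work with the members, and beside them stands the share of all genes tested, of which 35.1% were higher and 36.2% lower in the uL3Δ-labelled libraries with vehicle. Scaling by library size alone moved the median log2 difference of all genes by -0.24 and that division to 4202 higher and 6974 lower, from 5501 and 5684. Under that scaling the numbers higher and lower with vehicle became 3 and 14 for the coactivators of MYC, 5 and 13 for its protein turnover, 3 and 17 for ribosome assembly, 6 and 13 for metabolism and 3 and 11 for the cell cycle and translation. Of 21 MYC coactivators, 6 were higher and 12 lower with vehicle (median log2 difference -0.29, all genes -0.02). ACTL6A, a subunit of chromatin remodelling and acetyltransferase complexes, was at 41.5 ± 4.02 against 179 ± 15.9 CPM (SD, n = 3), whereas TRRAP, the scaffold of the histone acetyltransferases that MYC recruits, was at 122 ± 22.1 against 56.4 ± 16.3 CPM. BPTF, a nucleosome remodelling factor, was lower as well (192 ± 8.66 against 81.7 ± 5.46 CPM). With Act D, 5 of the 21 coactivators rose and 0 fell in HCT 116p53-/- cells, where 7.59% of all genes rose and 11.1% fell. Among those that rose, PIM1 and CDK9 each lost the call in 7 of 14 alternatives. In the uL3Δ-labelled libraries 0 rose and 3 fell, against 3.51% and 8.40% of all genes.

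Of the 17 corepressor genes of the MXD proteins and MNT, 8 were higher and 6 lower with vehicle. SIN3A, the corepressor that binds the MXD proteins directly, was at 67.3 ± 2.63 against 47.0 ± 2.05 CPM (adjusted p = 1.67e-05), and its partner SAP30 at 6.98 ± 0.258 against 16.5 ± 0.880 CPM (adjusted p = 1.35e-07). NCOR1 was higher in the uL3Δ-labelled libraries (26.1 ± 2.03 against 63.8 ± 8.89 CPM, adjusted p = 2.33e-08). The division of this list turned to 5 higher and 8 lower under scaling by library size alone. With Act D in HCT 116p53-/- cells, 3 of the 17 rose and 4 fell, where 7.59% of all genes rose and 11.1% fell. Among them SIN3A fell by 0.58 on the log2 scale (adjusted p = 8.04e-05) and SAP18 rose by 0.45 (adjusted p = 0.00067). Between the lines with Act D, SIN3A did not pass (-0.10, adjusted p = 0.285).

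Of 9 genes of the MGA complex (PRC1.6), 3 were higher and 4 lower between the lines with vehicle, and 1 and 6 under scaling by library size. PCGF6, the subunit that defines the complex, was lower in the uL3Δ-labelled libraries (34.4 ± 2.47 against 21.4 ± 0.802 CPM, adjusted p = 1.23e-05). It fell with Act D by 0.45 in HCT 116p53-/- cells (adjusted p = 0.00536) and by 0.75 in the uL3Δ-labelled libraries (adjusted p = 0.000303), both on the log2 scale.

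Of 24 genes of MYC protein turnover, 8 were higher and 10 lower between the lines with vehicle. HUWE1, a ubiquitin ligase of MYC, was at 422 ± 6.38 against 188 ± 26.1 CPM (adjusted p = 2.86e-09), and CIP2A, which shields MYC from a phosphatase, at 40.4 ± 2.03 against 79.4 ± 4.55 CPM (adjusted p = 4.93e-09). With Act D, 7 of the 24 fell and 1 rose in HCT 116p53-/- cells, and 10 fell and 0 rose in the uL3Δ-labelled libraries, where 8.40% of all genes fell and 3.51% rose. AXIN1 and GSK3B, which belong to the machinery that marks MYC for destruction, fell in both lines, AXIN1 by 1.17 (adjusted p = 6.93e-05) and 0.99 (adjusted p = 0.000332) and GSK3B by 0.67 (adjusted p = 4.79e-05) and 0.72 (adjusted p = 5.27e-05) on the log2 scale.

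Of 17 regulators of the MYC promoter and mRNA, 7 were higher and 8 lower with vehicle. IGF2BP1, a protein that stabilizes MYC mRNA, was at 1.26 ± 0.490 against 79.0 ± 12.6 CPM (log2 difference 5.97, adjusted p = 2.76e-14), opposite in direction to MYC. TCF7L2, the Wnt factor that acts on the MYC gene in colon cells, was at 55.9 ± 6.42 against 16.3 ± 1.74 CPM (-1.78, adjusted p = 1.37e-08), and its relative LEF1 at 0.173 ± 0.076 against 7.08 ± 1.18 CPM (5.30, adjusted p = 3.71e-10). With Act D, TCF7L2 fell in HCT 116p53-/- cells to 17.7 ± 3.88 CPM (-1.66, adjusted p = 1.44e-06), beside -0.27 for MYC in the same libraries. Between the lines with Act D, TCF7L2 did not pass (17.7 against 15.8 CPM, -0.15, adjusted p = 0.441), beside -4.29 for MYC. CTNNB1, of the same list, was higher in the uL3Δ-labelled libraries with vehicle (0.33, adjusted p = 0.000761) and did not pass with Act D (-0.02, adjusted p = 0.843). Whether any of these regulators had a part in the level of MYC was not tested.

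**Figure D4:**
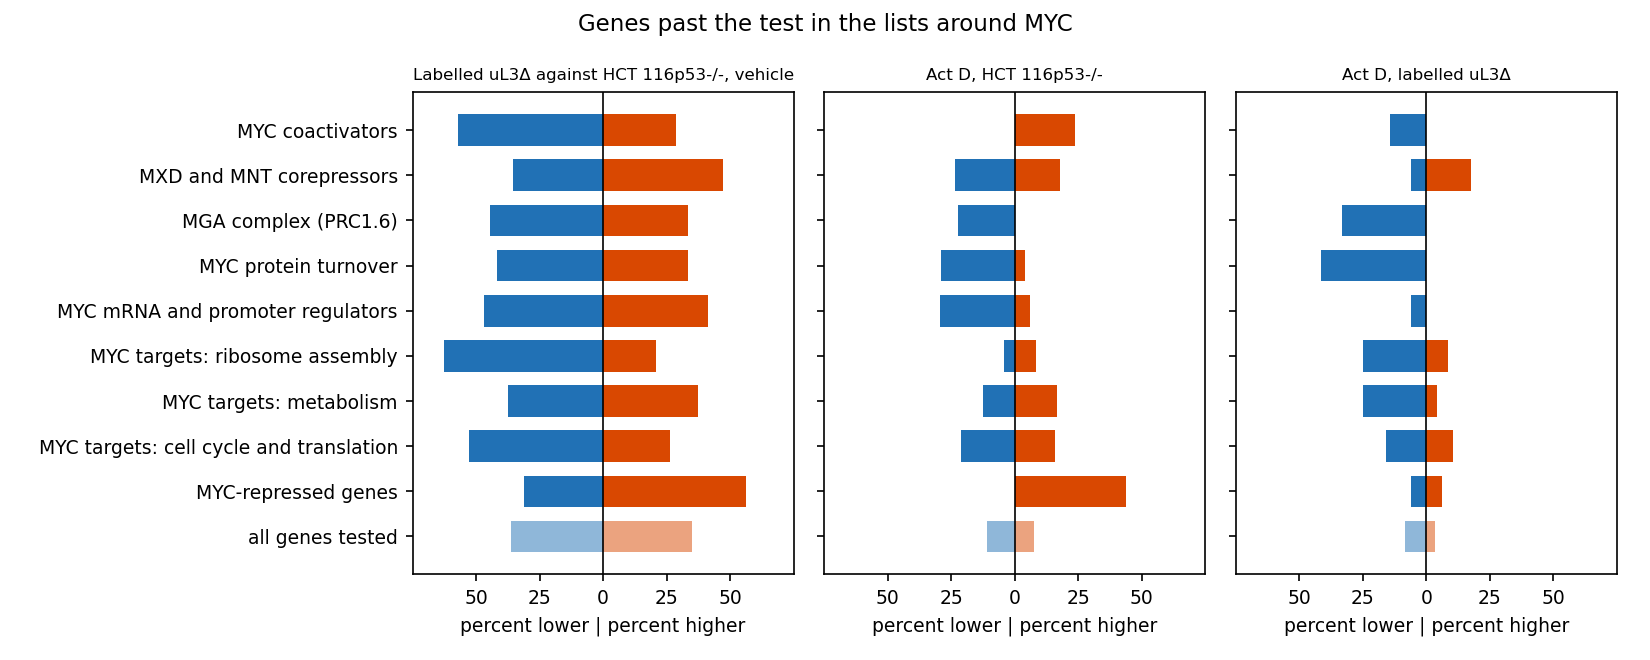
Percent of the tested genes of each list that were lower (left of 0) or higher (right of 0) at an adjusted p under 0.05, in 3 comparisons, with all 15692 genes tested in the bottom row. Between the lines with vehicle the ribosome assembly targets of MYC lean to lower (15 of 24) and the MYC-repressed genes to higher (9 of 16), beside 36.2% and 35.1% of all genes.

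Genes that MYC is known to control were followed in 4 lists. Of 24 ribosome assembly targets, 5 were higher and 15 lower in the uL3Δ-labelled libraries with vehicle (median log2 difference -0.33), and 3 were higher and 17 lower with Act D (median -0.62). Of all genes, 35.1% were higher and 35.3% lower with Act D, and the median was -0.02 with either treatment. POLR1B, a core subunit of RNA polymerase I, was at 154 ± 4.67 against 74.5 ± 2.46 CPM (SD, n = 3; adjusted p = 5.48e-10) and BOP1, which acts in the maturation of the large ribosomal subunit, at 185 ± 17.6 against 85.6 ± 15.8 CPM (adjusted p = 2.75e-07). NOLC1, a nucleolar phosphoprotein, went the other way (207 ± 0.649 against 387 ± 39.9 CPM, adjusted p = 1.54e-07), as did PA2G4 (432 ± 24.7 against 754 ± 45.4 CPM, adjusted p = 4.7e-08). With Act D, 2 of the 24 rose and 1 fell in HCT 116p53-/- cells, where 7.59% of all genes rose and 11.1% fell. In the uL3Δ-labelled libraries 2 rose and 6 fell (0 and 11 under scaling by library size alone), against 3.51% and 8.40% of all genes. Those that rose in HCT 116p53-/- cells were NOLC1 and PA2G4, and each lost its call in 8 of 14 alternatives. In the uL3Δ-labelled libraries they were NOLC1 and NCL, which lost theirs in 8 and 9. BOP1 fell in HCT 116p53-/- cells by 0.75 on the log2 scale (adjusted p = 0.000304).

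Of 24 metabolic targets, 9 were higher and 9 lower with vehicle. SHMT2, the serine hydroxymethyltransferase of mitochondria, was higher in the uL3Δ-labelled libraries (134 ± 9.71 against 517 ± 37.5 CPM, log2 difference 1.95, adjusted p = 1.43e-12), and HK2, a hexokinase, was lower (242 against 64.6 CPM, -1.92, standard error 0.18, adjusted p = 3.87e-08). The glucose transporter SLC2A1 was lower in the uL3Δ-labelled libraries (339 ± 17.1 against 141 ± 21.9 CPM, adjusted p = 1.71e-09) and fell with Act D in both lines, by 0.75 (adjusted p = 2.82e-05) and by 0.78 (adjusted p = 5.47e-05) on the log2 scale. ODC1, the first enzyme of polyamine synthesis, rose with Act D in HCT 116p53-/- cells from 518 ± 25.8 to 717 ± 14.3 CPM (0.47, adjusted p = 0.000457), while MYC fell there. A link between ODC1 and MYC was not tested. Of the 24 targets, 4 rose and 3 fell with Act D in HCT 116p53-/- cells, where 7.59% of all genes rose and 11.1% fell. In the uL3Δ-labelled libraries 1 rose and 6 fell, against 3.51% and 8.40% of all genes.

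Of 19 tested targets in the cell cycle and translation, 5 were higher and 10 lower with vehicle. CDC25A, a phosphatase of cell cycle entry, was higher in the uL3Δ-labelled libraries (54.9 ± 1.72 against 126 ± 2.46 CPM, adjusted p = 9.82e-10) and so was CDK4 (124 ± 5.19 against 204 ± 21.6 CPM, adjusted p = 1.82e-06). TERT, the catalytic subunit of telomerase, was lower (5.96 ± 1.05 against 0.801 ± 0.223 CPM, adjusted p = 2.7e-08), as was E2F2 (40.7 ± 1.36 against 12.4 ± 1.17 CPM, adjusted p = 4.95e-09). Both fell with Act D in HCT 116p53-/- cells, TERT by 0.98 (adjusted p = 0.00634) and E2F2 by 0.88 (adjusted p = 0.000186) on the log2 scale. Of the 19, 3 rose and 4 fell there, where 7.59% of all genes rose and 11.1% fell. Those that rose were ID2, CCNE1 and EIF2S1, and each lost its call in 7 or 8 of 14 alternatives. In the uL3Δ-labelled libraries 2 rose and 3 fell with Act D, against 3.51% and 8.40% of all genes.

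Of 16 tested genes that MYC is known to repress, 9 were higher and 5 lower in the uL3Δ-labelled libraries with vehicle (median log2 difference 0.70). This division under scaling by library size alone is not given here. The list of MYC-repressed genes shares PDGFRB with the fibroblast markers. GADD45B, a stress sensor, was at 20.6 ± 1.52 against 124 ± 14.9 CPM (2.59, adjusted p = 5.31e-13) and CDKN1C, an inhibitor of cyclin-dependent kinases, at 2.95 ± 0.497 against 15.5 ± 0.414 CPM (2.39, adjusted p = 1.55e-09). FTH1, the heavy chain of ferritin, was lower (1379 ± 266 against 429 ± 52.7 CPM, -1.69, adjusted p = 7.5e-10). With Act D, 7 of the 16 rose and 0 fell in HCT 116p53-/- cells, where 7.59% of all genes rose and 11.1% fell, and in the uL3Δ-labelled libraries 1 rose and 1 fell. Under scaling by library size alone 5 rose and 0 fell in HCT 116p53-/- cells. CDKN1A, the p21 inhibitor, rose from 162 ± 10.0 to 554 ± 28.1 CPM in these p53-deleted cells (1.77, adjusted p = 4.02e-10), and CDKN2B from 3.16 ± 0.501 to 8.21 ± 1.35 CPM (1.38, adjusted p = 2.04e-05). CDKN2B also rose in the uL3Δ-labelled libraries, from 5.75 ± 0.350 to 14.2 ± 0.449 CPM (1.30, adjusted p = 4.04e-05).

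Genes whose pattern was most like that of MYC over the 12 libraries were sought by Pearson's r on log2(CPM + 1). Over 10866 genes, CYP24A1, ALDH1A3, RAB25, MPP7 and KDF1 were nearest, all at r of 0.9988 or more. CYP24A1, which breaks down active vitamin D, was at 60.4 and 47.5 CPM in HCT 116p53-/- cells with vehicle and Act D and at 0.480 and 0.553 CPM in the uL3Δ-labelled libraries. Since the points share the split between the lines, 2223 genes reached an r of 0.9 and 2427 reached -0.9, and the value describes that split. Among the members, r with MYC was 0.81 for MXI1 and 0.85 for MNT, -0.98 for MXD1, -0.85 for MAX, -0.79 for MXD3, -0.75 for MXD4 and -0.70 for MLX.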

How the data were processed

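RNA-seq libraries (TruSeq, paired ends) were compared in 4 groups of 3. The authors counted reads with RSEM (1.2.25 per the submitters' processing notes; hg38) and deposited expected counts per Ensembl gene, which are estimated and not normalized, and TPM. For replicate 2 of HCT 116p53-/- cells with vehicle the values are per transcript, deposited with each transcript's percent of its gene, and were summed. Counts were rounded, filtered with filterByExpr (15692 genes left of 33990) and normalized with TMM. A model with a coefficient per group was fitted to all 12 libraries with edgeR 4.0.16 (R 4.3.3), tested on simulated data first. Named genes are all members and, per list and comparison, up to 3 genes in each direction with the largest fold change, at least 5 CPM and no overlap, not all of which are given. Among the 3 targets of MondoA and MLX, the neighbours and regulators of MYC and the markers, further genes were named after their values were seen. The members and the 17 lists beside them were chosen with earlier results of these data known. Coordinates are from GENCODE, promoters from RefSeq. The genes most opposite to MYC in pattern are not reported here.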

Additional observations from a re-analysis of the deposited data

How the results depend on the processing

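Alternatives tried were the likelihood-ratio test of edgeR, DESeq2 1.42.0, upper-quartile scaling or library size alone, a filter of 1 CPM in 3 libraries or none, a replicate block, only the groups compared, a log2 fold change of at least 1, and each library left out in turn. The counts of 8, 7, 2 and 1 members called (lines with vehicle, lines with Act D, Act D in HCT 116p53-/- cells, Act D in the uL3Δ-labelled libraries) became 3, 3, 0 and 0 with a log2 fold change of at least 1. The share of all genes at that limit is not given here, so these counts stand without a background. Without a filter on low counts 1 member passed for Act D in HCT 116p53-/- cells, and under scaling by library size alone 0 passed for Act D in the uL3Δ-labelled libraries. Of all genes, 2856 of 33990 passed in the first of these runs and 2085 of 15692 in the second. Scaling by library size alone gave 6 for the lines with either treatment (without MAX and MXD4 with vehicle, without MXD4 with Act D). There, 11176 of all genes passed with vehicle and 11069 with Act D. The likelihood-ratio test, upper-quartile scaling and the fit of only 2 groups gave 3 for Act D in HCT 116p53-/- cells (with MXD3). Of all genes, 3374 and 2999 of 15692 and 3561 of 14435 passed there. The fit of only 2 groups gave 8 for the lines with Act D (with MAX), beside 10848 of 14824 genes. The cause was not tested. Leaving out a library gave 8 throughout for the lines with vehicle, 4 to 7 members for the lines with Act D (4 without replicate 1 of HCT 116p53-/- cells or replicate 3 labelled uL3Δ), 0 to 2 for Act D in HCT 116p53-/- cells (0 without replicate 1 with Act D, 1 without replicate 2 of either treatment) and 0 to 1 in the uL3Δ-labelled libraries (0 without replicate 2 with vehicle or replicates 1 or 3 with Act D). In the same order of comparisons, 10677 to 11251, 10520 to 10780, 1833 to 2312 and 1272 to 1709 of all genes passed, of 16025 to 16185 tested. Fewer libraries enter those fits, and other causes were not tested. With MGA counted among the partners of MAX, the share of the MYC family became 82.0% with vehicle and 79.3% with Act D in HCT 116p53-/- cells, and for uL3Δ-labelled libraries 17.1% with vehicle and 16.4% with Act D. Same-numbered libraries did not deviate together (r between -0.10 and 0.10), so the numbers do not pair them, and the replicate block gave 8, 7, 2, 1 and 0 members called, the last for the difference of the responses. Of all 15692 genes the block called 10964, 10818, 2469, 1502 and 722. No member called changed direction in any of these alternatives. MYCN, with 1 count in all, gave no result at this depth.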
